A study of Mus musculus with 6 samples.

Results

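Ly86 and 7 genes that belong with it in the sensing of microbial products were followed across host bone marrow stem and progenitor cells with and without leukemia. They were taken by symbol from the 32285 genes of the count matrices and are Ly86, Cd180, Tlr4, Ly96, Cd14, Tlr2, Tlr1 and Tlr7. Ly86 was picked because earlier work on these files had found it higher in the leukemia libraries. The difference between AML and PBS is therefore given for the 8 genes as a description, and no test is read from it.

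The recipients were female C57BL/6J mice carrying CD45.1, aged 8 to 12 weeks and not conditioned. AML mice had received 1000000 C1498 cells, a murine acute myeloid leukemia line carrying CD45.2, and control mice had received PBS. All were sacrificed at day 21, and CD45.1+ Lin- cKit+ Sca1+ (LSK) bone marrow cells were sorted, a gate that leaves out CD45.2 leukemia cells and most mature blood cells. Each group has 3 droplet single-cell libraries, and the labels do not say whether a library is 1 mouse or a pool, so p-values measure only the spread between these libraries.

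The authors' cell table keeps 16822 cells, from 693 to 6838 per library, and none from AML replicate 2. The comparisons thus set 3 PBS libraries against AML replicates 1 and 3. Kept cells carried a median of 4015, 9586 and 4388 UMIs (counted RNA molecules) in PBS replicates 1, 2 and 3, and of 2393 and 5910 UMIs in AML replicates 1 and 3. The kept cells of any pair of libraries had at most 12 barcodes in common. Against the complete barcode lists, however, all 934 kept cells of PBS replicate 2 carried a barcode that another library also listed, as did 720 cells in PBS replicate 1, 1730 in PBS replicate 3, and, with leukemia, 258 cells of replicate 1 and 1854 of replicate 3. The list of AML replicate 2 shared 2472 barcodes with that of PBS replicate 3 and 2408 with that of AML replicate 3. It shared 1500 with PBS replicate 1, 1223 with PBS replicate 2 and 624 with AML replicate 1. PBS replicate 2 lists only 1256 barcodes, so nearly all of its list was also in that of AML replicate 2. Whether such barcodes are the same cells was not tested, and levels without them are given below. The stem cell markers Kit, Ly6a and Cd34 were among the 10 LSK markers examined, of which none was at 0 in any of the 5 libraries. Of those 10, 5 lay below every PBS library in both AML libraries, among them Procr (1.55 and 7.04 CPM against 10.8 to 26.6 CPM), a pattern seen in 17.4% of all tested genes, and none was called.

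MD-1, the product of Ly86, is a small secreted protein that binds the extracellular part of CD180 (RP105) and is needed for CD180 to reach the cell surface. CD180 resembles TLR4 but lacks its intracellular signalling domain, and is known from B cells and myeloid cells. MD-2, the product of Ly96, plays the same part for TLR4, the receptor for bacterial lipopolysaccharide, and CD14 hands lipopolysaccharide to that pair. TLR2 with TLR1 binds bacterial lipopeptides at the surface, and TLR7 binds single-stranded RNA in endosomes.

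Ly86 (ENSMUSG00000021423) lies on the plus strand of chr13:37345208-37419036 and Cd180 (ENSMUSG00000021624) on the plus strand of chr13:102693558-102739629, in the GENCODE annotation of GRCm38. Tlr4 lies on chromosome 4, Ly96 on chromosome 1, Tlr2 on chromosome 3, Tlr1 on chromosome 5 and Tlr7 on chromosome X. The sequence before the start is shown for Ly86 and Cd180, the partner genes whose levels are compared below. RefSeq promoter entries (GRCm38.p6) were found for 4 of the 8 genes, and the windows printed here stop before the start of the gene in both annotations. They are chr13:37345095-37345207 for Ly86 and chr13:102693297-102693546 for Cd180, both 5′ to 3′ on the plus strand.
Ly86: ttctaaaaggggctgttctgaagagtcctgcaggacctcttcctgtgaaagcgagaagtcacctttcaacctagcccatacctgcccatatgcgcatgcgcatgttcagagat
Cd180: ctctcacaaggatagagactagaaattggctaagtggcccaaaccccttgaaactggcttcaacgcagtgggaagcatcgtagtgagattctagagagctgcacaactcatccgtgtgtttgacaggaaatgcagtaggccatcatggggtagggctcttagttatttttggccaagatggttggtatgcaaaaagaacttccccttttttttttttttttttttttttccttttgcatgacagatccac

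The Ly86 stretch holds 113 bases with 50.4% G and C, and the Cd180 stretch holds 250 bases with 42.8%. Motifs of 3 kinds were searched on both strands of the 250 bases before each RefSeq start. GAGGAAGT, the core bound by PU.1, was found in 2.44% of 32851 promoters. A composite of the ETS and IRF motifs was found in 2.30%, and the interferon-stimulated response element in 2.98%. None of these occurred in the windows of Ly86, Cd180 or Tlr2. The only match among the entries was GAGGAAGT 23 bases before a Tlr1 start, on its plus strand. Of the 250 bases searched for Ly86, only 113 lie before the GENCODE start. Windows of Tlr1 and Tlr2 also run into the gene as GENCODE places it. The motifs can overlap each other, and a match or its absence says nothing of a factor's binding.

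The genes differed widely in how many UMIs they yielded, which set how much can be said of each. Over the 16822 kept cells, Ly86 gave 6223 UMIs in 1768 cells (10.5%), Ly96 gave 1291 UMIs in 1187 cells and Cd180 gave 949 UMIs in 876 cells (5.21%). Tlr7 gave 490 UMIs, Tlr4 283 and Tlr2 272. Cd14 gave 42 UMIs and Tlr1 only 4. UMI counts are not corrected for gene length, so these totals do not rank the genes by expression.

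Ly86 stood far above the control range in both AML libraries. Its level, in counts scaled to a library total of 1000000 UMIs (CPM, with TMM-normalized library sizes), was 24.7, 13.01 and 39.2 in PBS replicates 1, 2 and 3. In AML replicates 1 and 3 it was 216.8 and 141.2. The groups did not overlap, and the lower AML library was above the highest PBS library. The mean of the 3 PBS libraries was 25.7 CPM with an SD of 13.1, and that of the 2 AML libraries 179.0 CPM with an SD of 53.5, a log2 fold change of 2.78 ± 0.36 (SE, edgeR quasi-likelihood fit). Of the 7 genes that passed the filter on low counts, 1 (Ly86, adjusted p = 0.00708 in edgeR) passed the threshold, where 0.160% of all 14364 tested genes did in either direction and 0.153% as higher in AML. Without PBS replicate 1 the adjusted p was 0.0738. Since that contrast chose Ly86, nothing is read from this count.

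Cd180, the receptor that MD-1 accompanies, had AML values just above its PBS values. PBS replicates 1, 2 and 3 gave 8.09, 8.71 and 9.49 CPM, and AML replicates 1 and 3 gave 13.4 and 12.6 CPM, with no overlap. Its log2 fold change was 0.55 ± 0.23 (SE), with an adjusted p of 0.431 in edgeR. Ly86 and Cd180 were the 2 of 7 genes with AML values wholly above the PBS range, which was so for 14.6% of all tested genes.

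The lipopolysaccharide receptor genes did not share the pattern of Ly86. Ly96 was at 12.4, 13.99 and 17.1 CPM in PBS and at 10.3 and 12.1 CPM in AML, so that the AML libraries lay just below. Tlr4 was at 2.55, 4.11 and 3.23 CPM in PBS against 1.03 CPM in AML replicate 1, which rests on 2 UMIs, and 2.94 CPM in AML replicate 3, which lay within the PBS range. Cd14 had 13, 3 and 10 UMIs in PBS, 0 in AML replicate 1 and 16 in AML replicate 3, too few for a comparison.

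Of the receptors for lipopeptides and RNA, Tlr2 was at 2.81, 2.84 and 3.13 CPM in PBS and at 2.06 and 2.69 CPM in AML, where AML replicate 1 had 4 UMIs. Tlr7 was at 3.33, 5.18 and 6.12 CPM in PBS and at 3.10 and 6.61 CPM in AML, with AML values on either side of the PBS range. Tlr1 had 1 UMI in each PBS library, 0 in AML replicate 1 and 1 in AML replicate 3, and was not tested. Both AML libraries were below every PBS library for Ly96 and Tlr2, a pattern that 17.4% of all tested genes showed. The adjusted p in edgeR was between 0.627 and 0.897 for these 5 tested genes. The median log2 fold change was 0.22 over the 7 genes and -0.03 over all tested genes.

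**Figure D1:**
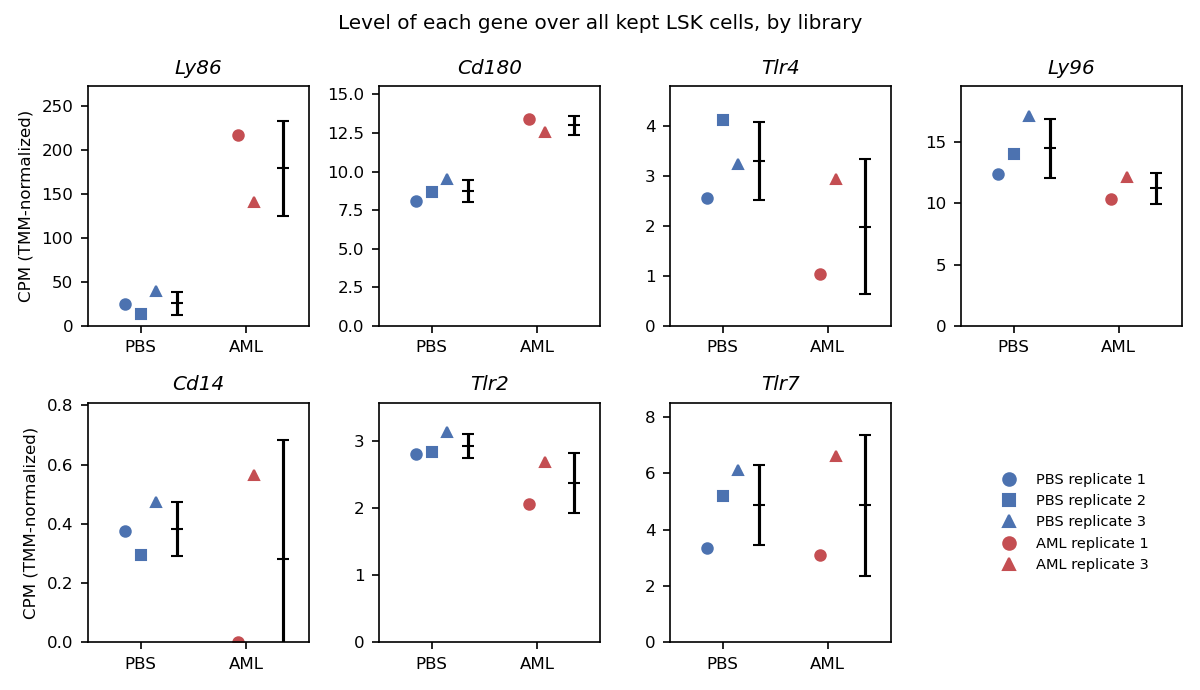
Level of each gene over all kept LSK cells in each library, in TMM-normalized CPM (vertical axes, each from 0, scales differ between panels). Points are libraries, and the bar beside each group is its mean ± SD (3 PBS and 2 AML libraries, cut at 0 for Cd14). The AML points of Ly86, at 141.2 and 216.8 CPM, lie far above the PBS points, and those of Cd180 lie above them by a small margin.

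The single cells show how the Ly86 level is made up, which a bulk sample could not. A Ly86 UMI was present in 5.06%, 5.03% and 6.96% of cells in PBS replicates 1, 2 and 3, and in 28.3% (95% Clopper-Pearson interval 25.0 to 31.8) and 22.1% (20.8 to 23.4) of cells in AML replicates 1 and 3. After each cell was thinned to 2000 UMIs, to remove differences in depth, the shares were 2.90%, 1.39% and 3.38% in PBS and 24.7% and 13.2% in AML. Thinning left out 125 cells of PBS replicate 1 and 80 of PBS replicate 3, and none of the others. The AML libraries stayed above the PBS libraries on both measures. These intervals cover counting error only.

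Ly86-positive cells also differed in how many Ly86 UMIs they held. The mean number of Ly86 UMIs per Ly86-positive cell was 2.47, 2.83 and 2.70 in PBS, 2.14 in AML replicate 1 and 4.57 in AML replicate 3. Cells with 5 or more Ly86 UMIs made up 0.687%, 0.857% and 1.25% of the PBS libraries, 1.59% of AML replicate 1 and 8.74% of AML replicate 3. AML replicate 1 was the shallowest library. With cells thinned to 2000 UMIs the mean per positive cell was 1.49, 1.31 and 1.53 in PBS and 1.92 and 1.66 in AML replicates 1 and 3, so both AML libraries were above the PBS libraries at equal depth.

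For Cd180 the plain share of cells followed depth. It was 3.80%, 8.24% and 4.25% in PBS and 3.75% and 8.23% in AML, with the highest shares in the deepest library of each group. After thinning it was 1.62%, 1.82% and 1.62% in PBS and 2.45% and 2.83% in AML. Nearly every Cd180-positive cell held a single UMI, with a mean of 1.00 to 1.16 UMIs per positive cell over the 5 libraries.

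Barcodes outside the cell table with fewer than 1000 detected genes, which hold little RNA, also carried Ly86. They gave 27.6, 143.2 and 37.3 CPM in PBS, the middle value resting on 12 UMIs, and 104.8 and 94.3 CPM in AML replicates 1 and 3. In AML replicate 3, Ly86 was at 0 UMIs in 57 cells of cluster 5 and in 21 cells of cluster 7. It had 11 UMIs (18.1 CPM) in cluster 6, which is led by immunoglobulin genes, 7 UMIs (30.7 CPM) in cluster 8, which is led by T and NK cell genes, and was at 487 CPM in cluster 4. The part of free RNA in these levels was not tested.

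Kept cells with barcodes that no other library listed gave a lower Ly86 level than all kept cells in 3 of 4 libraries. It was 21.3 CPM in PBS replicate 1, 14.8 in PBS replicate 3 and, for AML, 281.0 in replicate 1 and 67.2 in replicate 3. No such cell was left in PBS replicate 2. The AML libraries remained above the PBS libraries. The log2 fold change was 3.36, with an adjusted p of 0.941 in edgeR with 2 libraries in each group. In that fit 0 of the 12730 tested genes passed the threshold, and 324 had an unadjusted p under 0.05.

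The authors assigned each cell to 1 of 4 classes from module scores: HSC, the stem cells, and the multipotent progenitors MPP2, biased to megakaryocytes and erythroid cells, MPP3, biased to myeloid cells, and MPP4, biased to lymphoid cells. Class levels without leukemia were compared in the 3 PBS libraries, on counts summed per library and class, with 1 term per library. The genes behind the module scores were not available as a list, so whether a member was among them was not checked. The F test over the classes called 4 of the 6 members that passed the filter, and 60.7% of all 11793 tested genes. Single contrasts called 35.8% of genes for MPP3 against HSC, 28.1% for MPP4 against HSC, 21.9% for MPP3 against MPP4, 17.1% for MPP3 against MPP2 and 47.4% for MPP4 against MPP2. A call was thus common among all genes, and the sizes and directions below say more than the calls.

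In PBS mice Ly86 was lowest in HSC and highest in MPP3. In plain CPM it was 2.21, 1.71 and 3.66 in HSC of PBS replicates 1, 2 and 3, and 27.6, 10.9 and 36.7 in MPP2. It was 49.9, 51.1 and 83.2 in MPP3, and 27.8, 13.9 and 34.3 in MPP4. HSC values lay below, and MPP3 values above, those of every other class, while MPP2 and MPP4 overlapped throughout. The log2 difference of MPP3 over HSC was 4.83 ± 0.26 (SE, adjusted p = 7.17e-13 in edgeR), and that of MPP3 over MPP4 was 1.38 ± 0.14 (adjusted p = 1.41e-07). MPP4 and MPP2 did not differ past the threshold, at -0.17 ± 0.13 (adjusted p = 0.297).

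The Ly86 share in HSC was low and, in PBS replicates 1 and 3, below that of the erythroid cells of cluster 7. Cluster 8, with its T and NK cell genes, had been planned as the cells lacking Ly86. Its Ly86 share was above that of HSC in PBS replicates 1 and 3, as given below, so it gave no background level. A Ly86 UMI was seen in 0.714%, 1.35% and 0.935% of HSC in PBS replicates 1, 2 and 3. In cluster 7, whose leading genes Car1, Hba-a1 and Hbb-bs mark erythroid cells, it was seen in 1 of 34 cells (2.94%) of PBS replicate 1 and 1 of 42 cells (2.38%) of PBS replicate 3. The median depth was 3160 and 3307 UMIs in these HSC and 7189 and 6625 UMIs in the erythroid cells. Cluster 5 had 0 Ly86 UMIs in its 270 PBS cells. With so few UMIs, expression and background cannot be told apart in PBS HSC.

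Cd180 had a different order, with its highest level in MPP4. It was 4.02, 4.56 and 3.95 CPM in HSC, 8.66, 7.53 and 8.20 in MPP2, 4.92, 5.11 and 7.42 in MPP3, and 12.1, 11.9 and 12.7 in MPP4 of the PBS libraries. MPP4 values lay above all others, and MPP2 and MPP3 did not overlap although their difference missed the threshold (-0.40 ± 0.23 on the log2 scale for MPP3 over MPP2, adjusted p = 0.255 in edgeR). A Cd180 UMI was seen in 1.36% to 3.59% of HSC. It was seen in 0 of 34 and 0 of 42 cells of the erythroid cluster 7 in PBS replicates 1 and 3. There 3 cells with a UMI would be a share of 8.82% and 7.14%, which is not a confidence limit and does not bound the share of expressing cells. MPP4 exceeded HSC by 1.64 ± 0.21 (SE, adjusted p = 1.16e-06) while MPP3 over MPP4 was -0.80 ± 0.22 (adjusted p = 0.00875). Thus Ly86 and its receptor partner were highest in different classes.

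Tlr7 was also highest in MPP4, with a steeper difference. It was 7.63, 11.4 and 12.0 CPM in MPP4, against 0 to 1.69 CPM in HSC, 1.38 to 3.42 in MPP2 and 0 to 2.97 in MPP3. MPP4 values lay above all others, and the other 3 classes overlapped. MPP4 exceeded HSC by 3.25 ± 0.36 on the log2 scale (SE, adjusted p = 2.02e-07 in edgeR) and MPP2 by 1.99 ± 0.24 (adjusted p = 2.73e-07).

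Tlr4 ran the other way from Ly86 and was highest in HSC, at 5.43, 7.98 and 4.23 CPM, against 1.73, 3.80 and 2.48 CPM in MPP4. HSC values lay above those of the other classes in all 3 PBS libraries. MPP4 was below HSC by a log2 difference of -1.14 ± 0.31 (SE, adjusted p = 0.00667 in edgeR). The F test over the classes gave an adjusted p of 0.0187, which rose to 0.403 without PBS replicate 1 and to 0.0677 without PBS replicate 3.

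Ly96 and Tlr2 showed no class difference past the threshold. Ly96, the TLR4 partner, ranged from 10.9 to 14.3 CPM in MPP2 and from 15.5 to 20.01 CPM in HSC, with an adjusted p of 0.368 in edgeR. Tlr2 ranged from 1.56 to 2.67 CPM in MPP2 and from 3.20 to 4.83 CPM in MPP3, with an adjusted p of 0.0984, which was 0.0471 without PBS replicate 2. Tlr1 and Cd14 were not tested across classes. Tlr1 had 3 UMIs in PBS mice, all in MPP4, and Cd14 had 6 or 7 UMIs in each class.

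**Figure D2:**
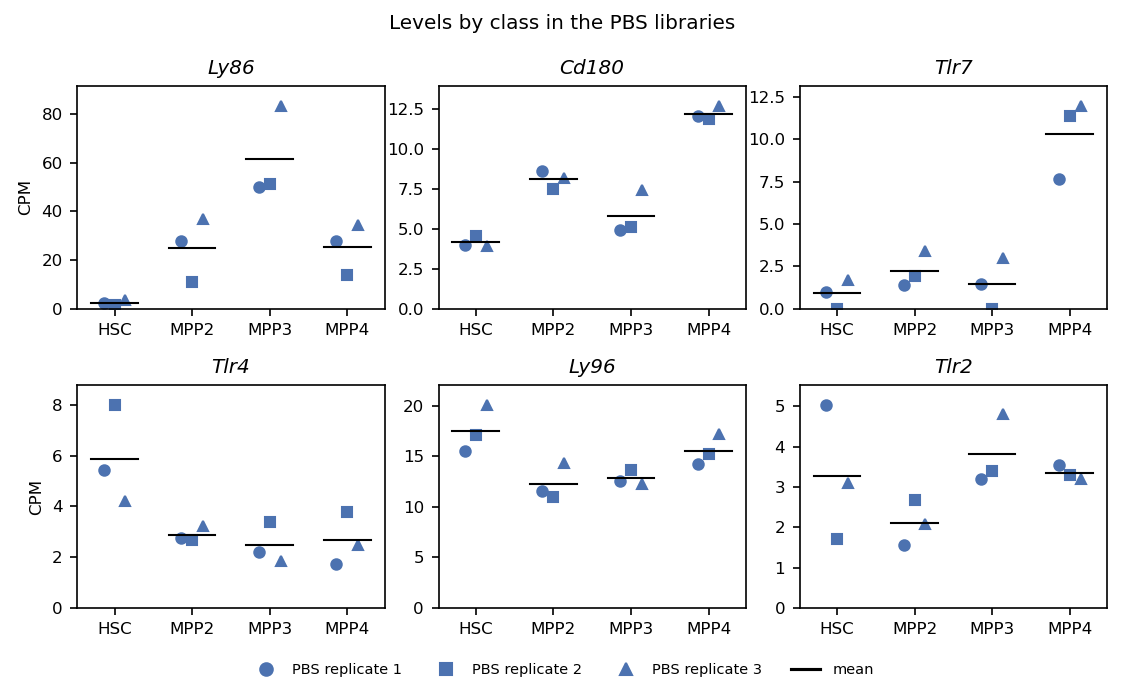
Levels of 6 genes in the 4 classes of the PBS libraries, in CPM of the summed counts (vertical axes from 0, scales differ between panels). Points are libraries and lines are means. Ly86 peaks in MPP3, Cd180 and Tlr7 in MPP4, and Tlr4 in HSC, while Ly96 and Tlr2 were not called across classes.

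Ly86 had its AML values above its PBS values in MPP2, MPP3 and MPP4. In AML replicates 1 and 3 it was at 156.8 and 131.1 CPM in MPP2, at 409.3 and 247.5 CPM in MPP3 and at 62.8 and 105.5 CPM in MPP4. In HSC it was at 32.6 CPM in AML replicate 1, which rests on 2 UMIs in 23 cells, and at 5.12 CPM in AML replicate 3, from 12 UMIs in 542 cells. The first is under the level that 3 UMIs would give (48.9 CPM). The second is above the PBS HSC values (1.71 to 3.66 CPM). It is also above clusters 5 and 7 of the same library, which held 0 Ly86 UMIs, and below its clusters 6 and 8. Expression and background were not told apart at these counts, so no difference is read in HSC. Cluster 4 of the authors' clustering, described below, held 25.9% and 33.3% of MPP3 in AML replicates 1 and 3 against 13.9% to 24.4% in PBS, and 5.54% and 7.22% of MPP2 against 1.52% to 3.79%, and its part in the class levels was not tested. MPP3 was highest in both groups. A Ly86 UMI was seen in 47.8% and 38.9% of MPP3 in AML and in 8.29% to 17.1% of MPP3 in PBS.

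Whether the AML difference varied between classes was tested across all genes with 1 term per library. Ly86 did not pass (adjusted p = 0.612 in edgeR), nor did any of the other 5 members tested (adjusted p of 0.838 or more). Of all genes, 0.872% passed. The makeup of the cells also differed. MPP3 made up 32.9% and 22.3% of cells in AML replicates 1 and 3 and 4.39% to 11.6% in PBS, and cluster 4 made up 11.1% and 9.57% in AML and 2.46% to 3.41% in PBS. With the 4 classes given equal weight, Ly86 was at 19.4 to 39.5 CPM in PBS and at 165.4 and 122.3 CPM in AML, a log2 ratio of 2.33. The same ratio was 0.58 for Cd180. It was 0.24 for Tlr4, opposite in sign to the edgeR fold change over all cells (-0.36). For Cd14 it was -0.52, where edgeR gave 0.30 over all cells. The mean Cd14 level over all cells was also lower in AML, at 0.283 CPM against 0.382 CPM in PBS. The equal-weight value is a ratio of means and not a fit, so no effect of class weight is read for Cd14. The Tlr4 value rests on 1 UMI among the 23 HSC of AML replicate 1 (16.3 CPM, under the 48.9 CPM that 3 UMIs would give), and no direction is read from it.

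**Figure D3:**
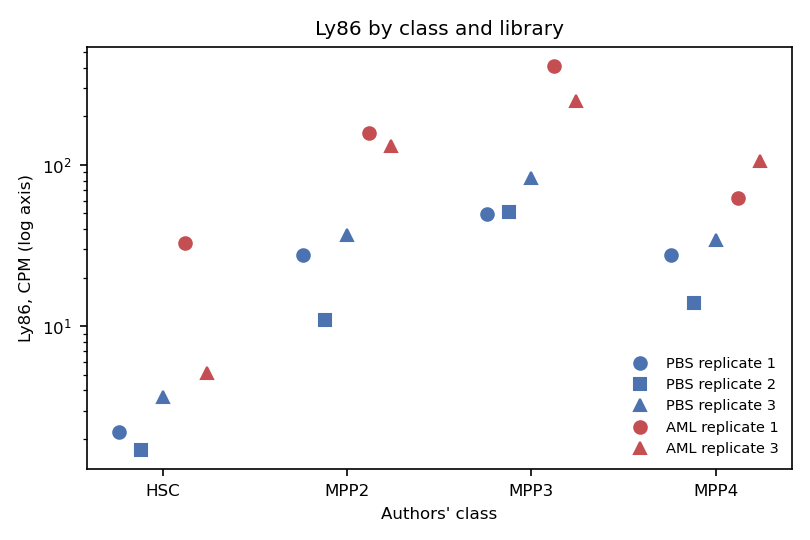
Ly86 level in each class and library, in CPM of the summed counts on a log axis. Points are libraries (circles, squares and triangles for replicates 1, 2 and 3). In MPP2, MPP3 and MPP4 both AML points lie above the PBS points, up to 409.3 CPM in MPP3, and the AML points of HSC rest on 2 and 12 UMIs.

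Among the other members, Cd180 had both AML values above PBS in MPP2, MPP3 and MPP4. It was at 22.8 and 18.7 CPM in MPP4 of AML replicates 1 and 3, above the 11.9 to 12.7 CPM of PBS, and at 14.2 and 12.0 CPM in MPP2, above the 7.53 to 8.66 CPM of PBS. The first of these AML values rests on 8 UMIs. Tlr7 in MPP4 was at 5.71 CPM, from 2 UMIs, and 14.4 CPM, on either side of the PBS range. Tlr4 in HSC was at 6.83 CPM in AML replicate 3, within the PBS range. AML replicate 1 had 2 Tlr4 UMIs in all.

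The authors' 9 clusters, numbered 0 to 8, divide the cells more finely. Cluster 4 is led by the granulocyte and monocyte genes Elane, F13a1, Ly6c2 and Ms4a3 and the basophil genes Prss34 and Mcpt8, and Ly86 itself is among its 10 leading genes, so the height of Ly86 there is part of what defines the cluster. Cluster 2 is led by Dntt and Il7r, genes of early lymphoid progenitors. Cluster 0 is led by Pf4 and Pdzk1ip1, cluster 3 by histone genes and cluster 8 by the T and NK cell genes Trbc1, Ccl5 and Klrk1.

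Ly86 was found in a minority of cells of most clusters and in the largest share of cluster 4. In cluster 4 the share of cells with a Ly86 UMI was 45.7%, 26.1% and 55.3% in PBS replicates 1, 2 and 3, and 72.7% and 76.5% in AML replicates 1 and 3. In cluster 2 it was 11.8%, 12.6% and 13.95% in PBS and 36.7% and 36.4% in AML. The AML libraries were above the PBS libraries in both, with the PBS value of replicate 2 in cluster 4 coming from 23 cells.

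Cells outside these clusters differed as well. In cluster 1 the Ly86 share was 1.88%, 1.91% and 3.45% in PBS and 33.5% and 14.7% in AML. In cluster 3 it was 4.55% to 7.65% in PBS and 25.5% and 21.9% in AML. In cluster 0 it was 0.678% to 1.16% in PBS, and 9.09% and 3.15% in AML. AML replicate 1 was thus above AML replicate 3 in clusters 0, 1 and 3, by a wide margin in the first pair.

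Few Ly86 UMIs came from cluster 5, which had 0 Ly86 UMIs in the 150, 22 and 98 cells of the PBS libraries and in the 57 cells of AML replicate 3. In that AML library 3 cells with a UMI would be a share of 5.26%, which is not a confidence limit and does not bound the share of expressing cells. The 12 cluster 5 cells of AML replicate 1 held 2 Ly86 UMIs. Cluster 8, with its T and NK cell genes, had Ly86 in 3 of 28, 0 of 5 and 6 of 23 cells in PBS and in 1 of 5 and 3 of 52 cells in AML. Cluster 6 had it in 0 of 9 and 4 of 59 cells in AML and in up to 2 of 12 cells in PBS, and cluster 7 in 0 of 2 and 0 of 21 cells in AML. These clusters hold too few cells for a comparison between the groups.

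**Figure D4:**
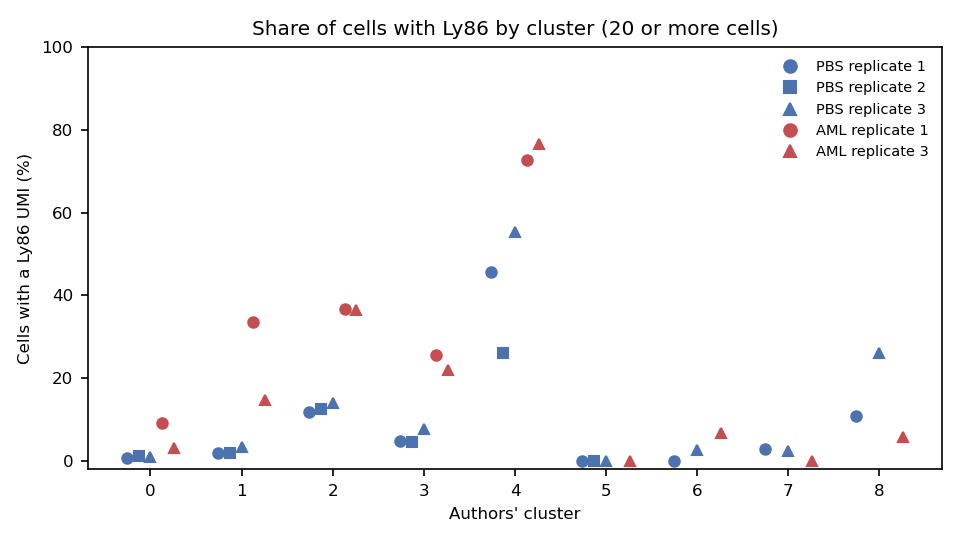
Percent of cells with at least 1 Ly86 UMI in each of the authors' clusters, for libraries with 20 or more cells in the cluster. Points are libraries. The AML points lie above the PBS points in clusters 0 to 4, with the highest shares in cluster 4 (72.7% and 76.5%), and cluster 5 is at 0.

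With cluster 4 left out, an alternative chosen after seeing the data, the log2 fold change of Ly86 was 2.92. Marker lists of other cell types were summed in plain CPM, without TMM scaling. The sum of the 10 monocyte and macrophage markers was 161 to 193 CPM in PBS and 293 to 310 CPM in AML, with none of the 10 at 0 in any library. Most of that difference lay in Ms4a6c (34.3 to 61.5 CPM in PBS, 171.7 and 162.6 CPM in AML), and without it the sums overlapped, at 99.6 to 158.2 CPM and 121.8 to 147.5 CPM. Of its 9 tested genes, F13a1, Ly6c2 and Ms4a6c were called higher, beside 0.153% of all genes, whereas Lyz2 was lower in both AML libraries (42.1 and 57.3 CPM against 66.2 to 128.3 CPM). The 9 neutrophil markers summed to 116 to 227 CPM in PBS and 348 to 552 CPM in AML, of which Mpo and Elane made up 396.8 and 152.1 CPM in AML replicate 1, and without Mpo they summed to 30.3 to 123.9 CPM and 155.2 to 156.2 CPM. Of its 6 tested genes 2 had a positive log2 fold change, none was called, and the median was -0.74. S100a8 was below PBS in both AML libraries, and S100a9 and Retnlg were at 0 in AML replicate 1. The 10 dendritic cell markers summed to 790 to 908 CPM in PBS and 765 to 1261 CPM in AML, and the 9 B cell markers to 78.2 to 90.6 CPM and 54.0 to 89.3 CPM. The 9 T and NK cell markers summed to 162 to 222 CPM in PBS and 257 to 293 CPM in AML, with Cd3d, Cd3e, Cd3g and Gzma at 0 in AML replicate 1 and Cd3e at 0 in PBS replicate 3. Ccl5 was at 6.15 to 39.7 CPM in PBS and at 104.8 and 66.2 CPM in AML and was not called, and without it the sums were 155.7 to 182.4 CPM and 188.1 to 190.6 CPM. The 8 erythroid markers summed to 121.7 to 502.1 CPM in PBS and to 50.9 and 232.9 CPM in AML replicates 1 and 3. All 8 had a negative log2 fold change (median -0.92), none was called, and Hba-a1, Klf1 and Epor were at 0 in AML replicate 1. The 6 mast cell and basophil markers summed to 42.1 to 80.4 CPM in PBS and 29.3 to 59.1 CPM in AML, 1 of 6 with a positive log2 fold change and none called, with Prss34, Fcer1a and Ms4a2 at 0 in AML replicate 1. The part of these cells in the Ly86 difference was not tested beyond the class and cluster values above.

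Cd180 and the TLR genes had their own order over the clusters in PBS mice. Cd180 had its highest mean in cluster 2, at 14.4 to 17.2 CPM, against 5.96 to 7.34 CPM in cluster 0. Single libraries reached 16.6 CPM in cluster 4 (PBS replicate 1) and 18.5 CPM in cluster 5 (PBS replicate 2, from 4 UMIs). Tlr7 was highest in cluster 2, at 11.4 to 16.3 CPM, against 0.913 to 3.54 CPM in cluster 0. Tlr4 was at 4.09 to 4.49 CPM in cluster 0 and at 1.56 to 3.36 CPM in cluster 2, and cluster 4 held 1 Tlr4 UMI in 370 cells. Cluster 4, where Ly86 was highest, thus held almost none in PBS mice of the lipopolysaccharide receptor transcript.

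Because MD-1 acts with CD180, cells with both transcripts were counted in each library. There were 38, 4 and 27 such cells in PBS replicates 1, 2 and 3, and 5 and 125 in AML replicates 1 and 3. Deep cells are more likely to show any gene, so the number expected was computed within 10 bins of UMIs per cell, as if the genes were independent inside a bin. It was 17.2, 4.17 and 17.8 in PBS and 7.26 and 89.1 in AML. The counts exceeded it in PBS replicates 1 and 3 and in AML replicate 3, and did not in the other 2 libraries, which had the fewest cells.

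The odds ratio within depth bins was 2.68, 0.951 and 1.70 in PBS and 0.598 and 1.91 in AML. Within classes it was 3.16, 0.955 and 2.06 in PBS and 0.742 and 2.26 in AML, and within clusters 2.01, 0.782 and 1.97 in PBS and 0.620 and 2.16 in AML. In cells thinned to 2000 UMIs only 0 to 20 double-positive cells were left per library, with odds ratios of 1.98, 0 and 1.75 in PBS and 0.400 and 1.45 in AML. Among Cd180-positive cells the Ly86 share was 14.6%, 5.19% and 14.4% in PBS and 19.2% and 38.3% in AML, so most cells with a Cd180 UMI showed no Ly86 UMI at this depth. Cells are not replicates, and no test was made.

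Of the 199 double-positive cells, 94 were in cluster 2 and 51 in cluster 4. By class, 78 were MPP4, 66 were MPP2 and 55 were MPP3, and none was HSC. In AML replicate 3, which held 125 of them, the numbers were 47, 38 and 40. Cluster 2 in that library had a Ly86 UMI in 36.4% and a Cd180 UMI in 12.5% of its cells.

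**Figure D5:**
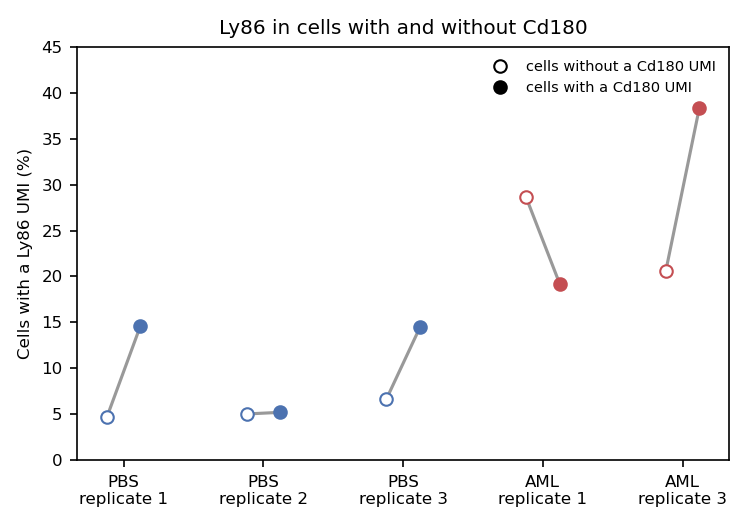
Percent of cells with a Ly86 UMI among cells without (open) and with (filled) a Cd180 UMI in each library. The share is higher in Cd180-positive cells in PBS replicates 1 and 3 and AML replicate 3, about equal in PBS replicate 2 (5.02% and 5.19%) and lower in AML replicate 1, where 26 cells have Cd180.

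Other pairs of members were counted in the same way. Ly86 and Tlr7 were seen together in 10, 5 and 15 cells in PBS and in 2 and 60 cells in AML, with odds ratios of 1.63 to 2.69 within depth bins and of 1.04 to 1.54 within clusters. Ly86 and Tlr4 were together in 2, 3 and 3 cells in PBS and in 0 and 8 cells in AML, against 4.95, 2.02 and 4.98 and 0.580 and 18.4 expected within depth bins. Within clusters the odds ratio of that pair was 0.824, 1.96 and 1.26 in PBS and 0 and 0.676 in AML. Tlr4 and Ly96, the lipopolysaccharide receptor and its partner, were together in 3, 4 and 5 cells in PBS and in 0 and 8 cells in AML, against 5.39, 5.26 and 5.29 and 0.0290 and 6.20 expected. Tlr4 was seen in 273 cells in all, which limits any such count.

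Genes whose levels ran most like Ly86 over the 20 library-by-class sums were taken by Pearson's r of log2 CPM among 4218 genes. They were Irf8 (r = 0.987), an interferon regulatory factor of monocytes and dendritic cells, Bcl2 (0.946), an inhibitor of apoptosis, Atp8b4 (0.946), a phospholipid transporter, and Pkib (0.917), an inhibitor of protein kinase A. For Cd180 they were Il1r1 (0.945), the interleukin 1 receptor, Snx9 (0.892), Gtf2f2 (0.889), Ube2a (0.882) and Atp1b3 (0.881). Ly86 and Cd180 had r = 0.439 with each other, Ly86 and Tlr4 had -0.490, and Cd180 and Tlr7 had 0.643. Over the 12 PBS sums alone, r was 0.783 for Cd180 with Il1r1, 0.710 with Snx9, 0.538 with Gtf2f2, 0.692 with Ube2a and 0.473 with Atp1b3. It was 0.657 for Ly86 with Cd180 and 0.981 for Ly86 with Irf8. The sums share libraries and depth, and 1 of them holds 23 cells, so these values are descriptions.

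Other genes of the pathway were counted by list. In edgeR none of the tested genes passed the threshold among 3 of 8 endosomal and other TLRs, 13 of 13 TLR adaptors and kinases, 6 of 7 TLR chaperones and ligand transfer genes, 5 of 6 TLR inhibitors and 5 of 6 CD180 signalling genes, where 0.160% of all genes did. Over these lists the median log2 fold change was between -0.02 and 0.21. Across classes of the PBS libraries the calls, beside 60.7% of all genes, were 5 of 5 for the CD180 signalling list (the kinases Lyn, Syk and Btk, the exchange factor Vav1 and the adaptor Blnk) and 5 of 6 for the chaperones, among them Unc93b1, which carries TLR7 to endosomes. They were 3 of 5 for the inhibitors Sigirr, Irak3 and Pik3ap1, and 3 of 13 for the adaptors and kinases, namely Irak2, Irak4 and Traf3.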

How the data were processed

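Single-cell gene expression was measured in 6 LSK libraries, 3 PBS and 3 AML. The deposited matrices hold raw UMI counts per gene and barcode, and the submitters' processing notes name Cell Ranger 7.0.1, R 4.2.2, Seurat 4.3.0 and the builds GRCm38 and mm10. No source used here states the authors' cell filter, doublet handling or library integration, and no doublet caller was run. The deposited cell table gave each cell's library, class, cluster and phase, and per the file headers the percent of mitochondrial UMIs, at most 5.23 in kept cells. A further 19 of its columns were not used.

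Counts of kept cells were summed per library, and per library and class with at least 20 cells, and tested with edgeR 4.0.16 (R 4.3.3, TMM, filterByExpr, quasi-likelihood F test, Benjamini-Hochberg over all genes, threshold 0.05). Kept cells held 1945659 to 32123508 UMIs per library. Classes in PBS were fitted with 1 term per library, and so was the AML effect by class. CPM by class and cluster are of the plain total. Shares were also computed after thinning cells to 2000 UMIs. Alternatives used DESeq2 1.42.0, limma 3.58.1 and an own filter of at least 1000 genes and at most 10% mitochondrial UMIs. The fits were tested on simulated data.

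The members, gene lists and tests were chosen with earlier results of these data known. The rule for named genes gives the 8 members, the 5 genes of highest correlation with Ly86 and with Cd180 at a mean log2 CPM of at least 5, and, from each list, those past the threshold. Of the 5 genes for Ly86, 1 is not reported here. Positions are from GENCODE and promoters from RefSeq. Cell type markers and the leading genes of clusters were named outside this rule, after their values were seen.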

Additional observations from a re-analysis of the deposited data

Results flagged for a closer look

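AML replicate 2 has no cell in the authors' table, and it enters the tests only in the alternative with the own filter on all 6 libraries. With the own filter it had 106 cells, in which Ly86 was at 336.5 CPM from 103 UMIs (exact 95% Poisson interval 274.7 to 408.1, counting error only), above the 10.95 to 33.1 CPM of the PBS libraries under the same filter. In AML replicates 1 and 3 that filter gave 182.2 and 129.6 CPM. Of its 106 cells, 75 carried a barcode that another library listed, and its 16949 barcodes under 1000 genes held Ly86 at 504.6 CPM. The part of those barcodes and of free RNA in this level was not tested.

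Under the same filter Tlr2 was at 13.1 CPM in AML replicate 2, from 4 UMIs (interval 3.56 to 33.5), against 2.74 to 2.96 CPM in PBS. Over all barcodes of that library it was at 2.82 CPM, within the 2.72 to 2.98 CPM of PBS.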

How the results depend on the processing

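Over all kept cells 23 genes passed for AML against PBS. The count was 83 with DESeq2, 392 with no filter on low counts, 75 with the own filter on 6 libraries, which adds AML replicate 2, and 2 to 419 when 1 library was left out (2 and 8 without PBS replicates 1 and 2, 419 without AML replicate 3). Among alternatives chosen after seeing the data it was 20 with the own filter and AML replicate 2 left out, 12 without cluster 4 and 0, with 324 genes at an unadjusted p under 0.05, with unshared barcodes. Ly86 kept its direction in all 17 alternatives (log2 fold change 2.33 to 3.36) and missed the threshold without PBS replicate 1 and with unshared barcodes. Cd180 kept a positive sign and Ly96 a negative sign in all 17. Tlr7 ran from -0.64 without AML replicate 3, where its sign turned, to 0.47 without AML replicate 1. The sign also turned for Tlr2 with the own filter on 6 libraries (0.17, and -0.09 with AML replicate 2 left out). For Tlr4 it turned with unshared barcodes (0.032) and with equal class composition (0.24, resting on 1 UMI in HSC of AML replicate 1). Cd14 was at -0.52 with equal class composition, a log2 ratio of means, but its ratio of means over all cells was already below 1 (0.741). Deviations from the group mean had correlations of -0.06 and -0.05 between same-numbered PBS and AML libraries. With only 2 AML libraries these values are not independent, so they cannot decide whether the numbers pair the libraries. With the replicate block 91 genes passed and Cd14 was at -0.11.

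The AML effect by class was called for 111 genes, for 506 with no filter, for 1 with limma-voom and the library as a random effect, and for 29 to 189 with 1 library left out (29, 189 and 50 without PBS replicates 1, 2 and 3), and no member passed in any of these. Class differences in PBS were called for 7164 genes, for 2933 with no replicate block (no term per library) and for 2713 in G1 cells. Ly86, Cd180 and Tlr7 were called across classes in all 7 alternatives. Tlr4 lost its call in 5 of 7, with adjusted p of 0.143 with no replicate block, 0.0540 with DESeq2, 0.0573 in G1 cells, and 0.403 and 0.0677 without PBS replicate 1 or 3. The cause was not tested for any of these changes. Depth limits Cd14, Tlr1, Tlr2 and Tlr4 most, with 2 to 4 UMIs or none in AML replicate 1.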
